A study of Sus scrofa with 6 samples.

Results

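Macrophage and pan-leukocyte marker genes were read in the left ventricular (LV) free wall of 6 Large White piglets, 3 injected with doxorubicin (Dox) and 3 with PBS. The rule took every probe set of the Affymetrix Porcine Genome Array whose single gene symbol is CD163, CD14, CD68, MRC1, CSF1R, AIF1, TYROBP, PTPRC, FCER1G or FGL2. Of these 10 genes, 8 have a probe set under their name, with 13 probe sets in all among the 23999 on the array that are not array controls. CD68 and CSF1R were not found among the annotated symbols and are not analysed here. The labels mention no genetic modification, and each array holds total RNA of 1 animal. The Dox-injected group received 2.0 mg/kg as a single intravenous injection when 8 days old, the PBS-injected group received the buffer alone, and the LV was taken 3 weeks later at 28 days of age in both groups, as the sample labels state. The paper's methods give a slightly younger age at injection, a later harvest and a dose range that extends lower. Dox is an anthracycline used against tumours whose main side effect is damage to the heart, and the piglets serve as a model of diastolic heart failure. The labels name no immune cell sort or other separation of cells, so the values describe whole LV tissue.

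Macrophages are the most abundant leukocytes of the healthy heart, where they clear dying cells, sample debris and exchange signals with cardiomyocytes and fibroblasts. Resident macrophages of the heart carry the scavenger receptor CD163 and the mannose receptor MRC1 at their surface, and they depend on signalling through CSF1R. Activating receptors of myeloid cells have short tails and signal through the small adaptors TYROBP (DAP12) and FCER1G, whose tyrosine motifs recruit the kinase SYK, while the phosphatase CD45, encoded by PTPRC, is found on all nucleated leukocytes.

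The values are MAS5 signals, an intensity for each probe set on a linear scale, which were compared as log2 signals with limma over all 23999 probe sets. Standing apart from the other arrays, Dox replicate 3 correlated with them at 0.897 to 0.916 over all log2 signals, against 0.925 to 0.945 among the other arrays. It held the lowest of the 6 signals for 34.3% of all 6765 genes read at their brightest probe set, and the highest for 24.7%, while PBS replicate 1 held the highest for 23.8%. Tag probe sets are controls against synthetic sequences without a counterpart in the pig. They reached at most 2.5 to 6.3 on the 6 arrays, and a signal that did not exceed the highest Tag signal of the same array is called within the Tag range. The cardiac origin of the tissue was plain in the signals of MYH7, the slow myosin heavy chain, at 5898.7 to 9785.6, and 0 of 11 measured cardiomyocyte genes lay within the Tag range on 4 or more arrays. Among the marker genes, CD163, MRC1, TYROBP, FCER1G, AIF1, FGL2 and the brightest CD14 probe set exceeded the Tag range on 6 of 6 arrays. The PTPRC probe set lay within it on 5 of 6, so that the pan-leukocyte side of the label rests on a gene that was hardly measured. In whole tissue, fewer cells of a type and less RNA per cell cannot be told apart.

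No marker gene passed the threshold of the study's methods, which asks for a 2-fold difference or more and an adjusted p no higher than 0.05. The genes did not move one way: at the brightest probe set of each, 5 had a log2 difference (Dox minus PBS) above 0, as 44% of all genes did, and 3 below 0, as 56% did, with a median of 0.26 against -0.07 over all 6765 genes. Without PTPRC, which was hardly measured, the median of the other 7 was 0.13, and without PBS replicate 1 that of the 8 was 0.063. The 5 were CD163, CD14, TYROBP, FCER1G and PTPRC, and the 3 were FGL2, AIF1 and MRC1. At these probe sets FGL2 had the smallest unadjusted limma p (0.052, lower in Dox-injected piglets), close to that of CD163 (0.061). Its groups overlapped there, with Dox replicate 1 the highest of the 6 arrays. Only at 2 dimmer FGL2 probe sets did every Dox-injected piglet lie below every PBS-injected piglet. CD163 and TYROBP were the best measured genes with a higher mean in Dox-injected piglets. Limma called 0 of the 8 genes, as it called 0% of the probe sets tested. Before adjustment, with p up to 0.05, it found 0 of the 8 genes higher (4.92% of all genes) and 0 lower (6.61% of all genes). The methods' t-test also gave 0 at either threshold. Over the 13 probe sets, 1 was higher with such a p (3.62% of all probe sets), a CD163 probe set, and 2 were lower (5.92% of all probe sets), both of FGL2. With 3 animals a group the smallest two-sided p of an exact permutation test is 0.1, and so few arrays leave every estimate imprecise.

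**Figure D1:**
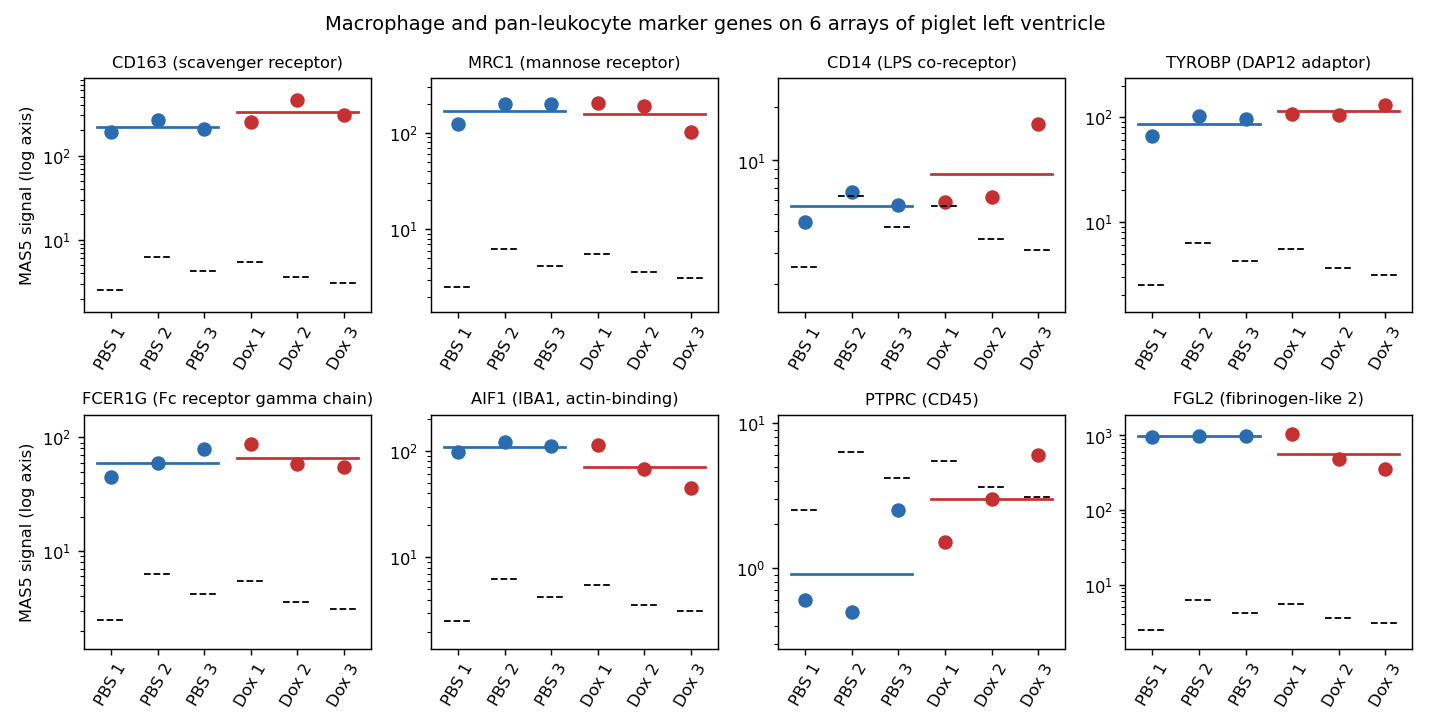
MAS5 signal (log axis) of the 8 measured marker genes at their brightest probe sets, with a point for each PBS-injected (blue) and Dox-injected (red) piglet, coloured lines at the geometric mean of each group and black dashes at the highest Tag signal of each array. TYROBP is the gene whose groups do not overlap, FGL2 and AIF1 are low in Dox replicates 2 and 3 alone, and PTPRC exceeds the Tag signal on 1 array.

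CD163 encodes the receptor that takes up haptoglobin-haemoglobin complexes and marks resident and anti-inflammatory macrophages. Its brightest probe set had signals of 190.3, 265.9 and 208 in PBS-injected and of 250.7, 459.2 and 299.8 in Dox-injected piglets. Dox replicates 2 and 3 lay above every PBS-injected piglet and Dox replicate 1 lay within their range, so the groups overlapped. The means were 221 ± 39.5 (SD, n = 3) and 337 ± 109 (SD, n = 3). The log2 difference of 0.57 (SE, the standard error, 0.26, 95% confidence interval from -0.03 to 1.17) gave a limma adjusted p of 0.533 (exact permutation test, p = 0.2), and it was 0.32 without Dox replicate 2. The second CD163 probe set had signals of 7, 15.1 and 20.4 in PBS-injected and of 18.3, 34.5 and 38 in Dox-injected piglets. Here too only Dox replicate 1 fell below the highest PBS-injected piglet. Its log2 difference was 1.16 (SE 0.49, limma adjusted p = 0.521), with a range from 0.72 without PBS replicate 1 to 1.49 without PBS replicate 3. Both CD163 probe sets thus had a higher mean in Dox-injected piglets under every alternative tried. Their log2 differences differed from each other by 0.59. This gap was not told apart from 0 (exact permutation test, p = 0.4), which does not show that the probe sets agree in size.

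MRC1 encodes the macrophage mannose receptor (CD206), an endocytic lectin that is often read together with CD163. Its probe set had signals of 124.3, 196.6 and 200.7 in PBS-injected and of 203.3, 188.7 and 102 in Dox-injected piglets. Each group held 1 low array, PBS replicate 1 and Dox replicate 3, and the other signals lay close together. The log2 difference was -0.11 (95% confidence interval from -0.84 to 0.63, limma adjusted p = 0.922), and it turned to 0.21 without Dox replicate 3 and to 0.012 without PBS replicate 3. The interval spans both directions, so a lack of change was not shown. MRC1 therefore did not share the higher mean of CD163 in these animals, although whether the 2 genes differ in response was not tested.

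CD14 encodes the co-receptor that hands bacterial lipopolysaccharide to TLR4 and is used to mark monocytes. The brightest CD14 probe set had signals of 4.5, 6.6 and 5.6 in PBS-injected and of 5.8, 6.2 and 16.2 in Dox-injected piglets. Only Dox replicate 3 stood out, and the other arrays lay little above their highest Tag signals. The log2 difference of 0.60 (SE 0.53, limma adjusted p = 0.702) was 0.12 without Dox replicate 3. At the second CD14 probe set the PBS-injected piglets gave 1.1 to 3.3 and the Dox-injected piglets 1.1 to 5.2, and 4 of 6 arrays lay within the Tag range.

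TYROBP encodes DAP12, the adaptor of TREM2 and of many other activating receptors of macrophages and NK cells. Its probe set had signals of 66.6, 101.7 and 96.2 in PBS-injected and of 108, 105 and 130.2 in Dox-injected piglets. Every Dox-injected piglet lay above every PBS-injected piglet, by a small margin between 101.7 and 105 (exact permutation test, p = 0.1, the smallest this design allows). The means were 88.2 ± 18.9 (SD, n = 3) and 114 ± 13.8 (SD, n = 3), a ratio of geometric means of 1.31. The log2 difference of 0.39 (SE 0.25) gave a limma adjusted p of 0.608 and was 0.20 without PBS replicate 1. TYROBP was the 1 of the 8 genes with groups that did not overlap and a higher level in Dox-injected piglets, where 9.06% of all genes did so, and 0 of the 8 did so in the lower direction, where 10.4% of all genes did.

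FCER1G encodes the common gamma chain of activating Fc receptors, an adaptor of the same kind as TYROBP that mast cells and NK cells also use. Its probe set had signals of 45.1, 59.8 and 79.3 in PBS-injected and of 87.1, 58.6 and 54.5 in Dox-injected piglets. The highest array was Dox replicate 1 and the lowest PBS replicate 1, with the other 4 between them in mixed order. The log2 difference of 0.13 (95% confidence interval from -0.58 to 0.83, limma adjusted p = 0.903) turned to -0.082 without Dox replicate 1 and to -0.077 without PBS replicate 1. The pair of adaptors thus gave values on the same side of 0, of which that of FCER1G changed sign when either of these arrays was left out.

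AIF1 encodes IBA1, an actin-bundling protein of macrophages and microglia that supports membrane ruffling and phagocytosis. Its probe set had signals of 97.2, 120.4 and 110.8 in PBS-injected and of 113.4, 68.2 and 45 in Dox-injected piglets. Dox replicates 2 and 3 lay below every PBS-injected piglet, whereas Dox replicate 1 lay within the PBS range. The means were 109 ± 11.7 (SD, n = 3) and 75.5 ± 34.8 (SD, n = 3). The log2 difference of -0.63 (SE 0.34, limma adjusted p = 0.568) ran from -0.31 when Dox replicate 3 was left out to -0.98 without Dox replicate 1. Dox replicates 2 and 3, which held the 2 lowest AIF1 signals, held the 2 highest CD163 signals.

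PTPRC encodes CD45, the receptor-type tyrosine phosphatase that defines leukocytes. Its single probe set had signals of 0.6, 0.5 and 2.5 in PBS-injected and of 1.5, 3 and 6 in Dox-injected piglets. Only Dox replicate 3 gave a signal above the Tag range, which ended at 3.1 on that array. The fitted difference (limma adjusted p = 0.551) is therefore given without a fold, and the level of CD45 mRNA was not measurable by this probe set on 5 of 6 arrays.

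FGL2 encodes fibrinogen-like protein 2, a membrane-bound prothrombinase of activated macrophages and endothelial cells that T cells also secrete in a soluble form. Its brightest probe set had signals of 946.6, 984.2 and 987.6 in PBS-injected and of 1041.6, 481 and 360.8 in Dox-injected piglets. The PBS-injected piglets lay close together, and the Dox-injected group split into 1 array above and 2 far below them. The means were 973 ± 22.8 (SD, n = 3) and 628 ± 363 (SD, n = 3), and the log2 difference of -0.78 (SE 0.35) gave a limma adjusted p of 0.523 (exact permutation test, p = 0.4). Leaving out Dox replicate 3 gave -0.46, and leaving out Dox replicate 1 gave -1.22.

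The other FGL2 probe sets can be read beside this one. The second brightest had signals of 572.2, 632.2 and 636.3 in PBS-injected and of 521.3, 244.1 and 204.2 in Dox-injected piglets, and the third had signals of 182.7, 247.5 and 198.4 in PBS-injected and of 121.5, 70.1 and 79.3 in Dox-injected piglets. At both, every Dox-injected piglet lay below every PBS-injected piglet (exact permutation test, p = 0.1 for each), with Dox replicate 1 again the highest of its group. The log2 difference was -1.05 (SE 0.33, limma adjusted p = 0.521) at the second and -1.24 (SE 0.27, limma adjusted p = 0.521) at the third, and their 95% confidence intervals ran from -1.80 to -0.30 and from -1.85 to -0.64 before any adjustment. With 1 array left out the difference at the third ranged from -1.48 to -1.08. These 2 of the 13 probe sets did not overlap in the lower direction, against 10.1% of all probe sets, and 1 of the 13, that of TYROBP, in the higher direction, against 6.19%. The probe sets of FGL2 share their animals and their gene and are not independent of each other. The fourth gave signals between 0.2 and 4.8 and exceeded the Tag range on 1 of 6 arrays. The second differed from the brightest by -0.27 in its log2 difference, with groups that did not overlap (exact permutation test, p = 0.1, the smallest this design allows). The third differed from the brightest by -0.46 and from the second by -0.19, with groups that overlapped (exact permutation tests, p = 0.3 and p = 0.4).

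**Figure D2:**
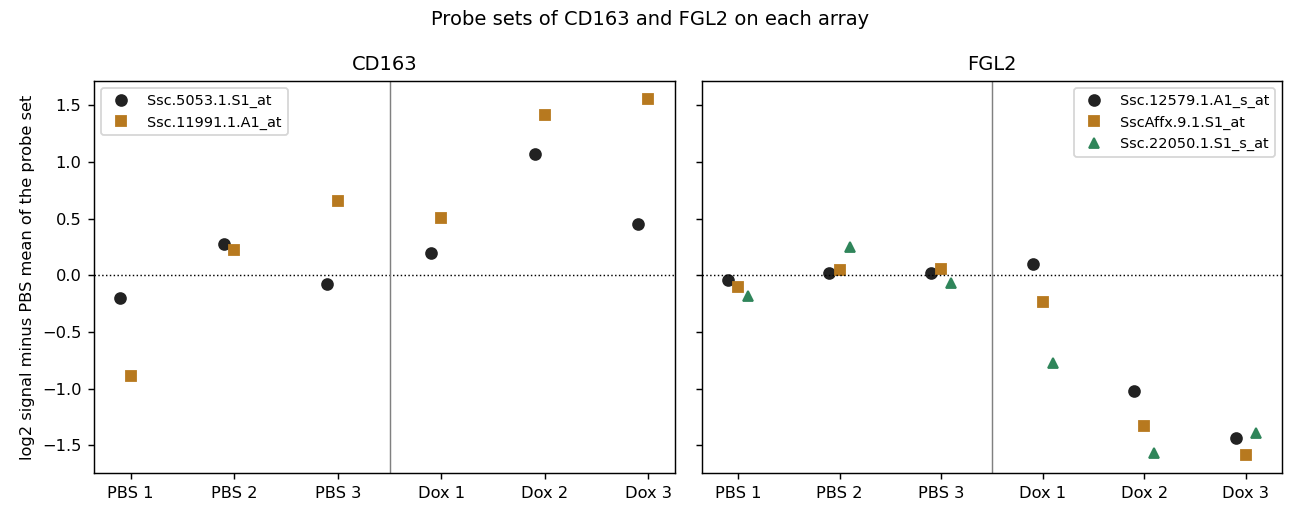
Log2 signal of each CD163 probe set (left) and of the 3 FGL2 probe sets above the Tag range (right) on the 6 arrays (circles the brightest, then squares and triangles), after subtraction of the mean of the PBS arrays of that probe set. Points of CD163 lie highest in Dox replicates 2 and 3, and points of FGL2 lie lowest in the same piglets, with the 3 FGL2 probe sets furthest apart in Dox replicate 1.

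**Figure D3:**
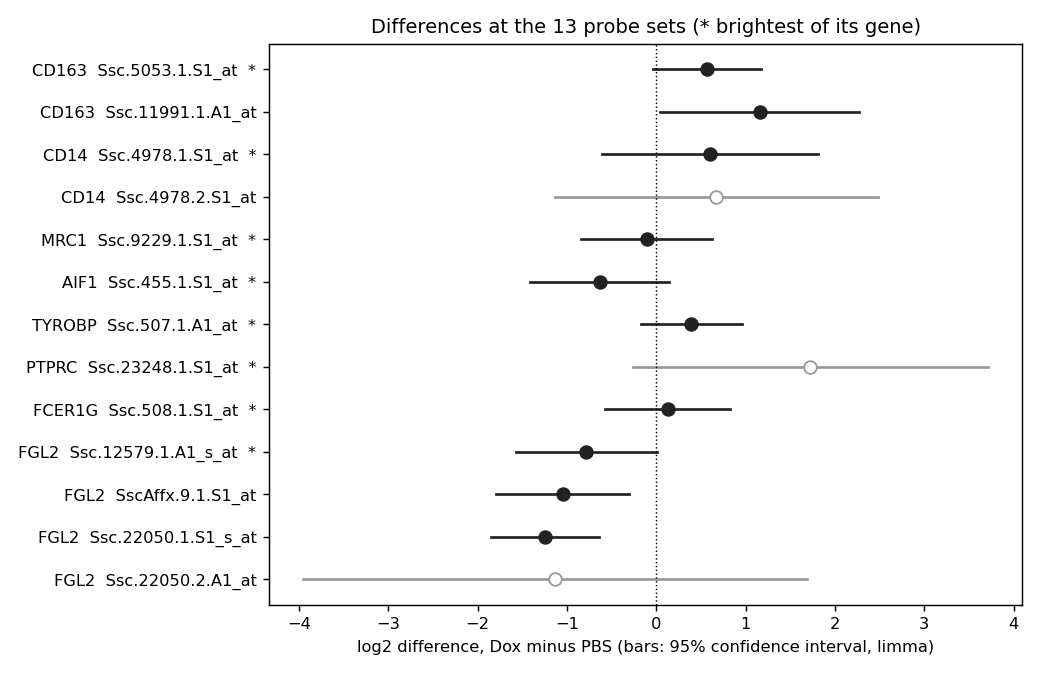
Log2 difference (Dox minus PBS) at the 13 probe sets of the marker genes, with 95% confidence intervals from limma before adjustment. Open grey points are the 3 probe sets within the Tag range on 4 or more arrays, and an asterisk marks the brightest probe set of each gene; the interval excludes 0 for 1 CD163 and 2 FGL2 probe sets.

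The marker genes did not share an order over the animals. Dox replicate 3 held the highest of the 6 signals for CD14, TYROBP and PTPRC and the lowest for MRC1, AIF1 and FGL2. Dox replicate 1 held the highest for MRC1, FCER1G and FGL2, and Dox replicate 2 for CD163. PBS replicate 1 held the lowest signal for 4 of the 8 genes, CD163, CD14, TYROBP and FCER1G, where it held the lowest for 18.7% of all genes. The red cell genes were also uneven in this animal, with ALAS2, the first enzyme of haem synthesis in red cells, at 437.1 against 49.9 and 58.4 in the other PBS-injected piglets and 18.1 to 108 in Dox-injected piglets. Over the 4 red cell genes the summed signal was 213.7 to 799.2 in the PBS group and 112.8 to 293.6 in the Dox group, and its part in the low macrophage signals of PBS replicate 1 was not tested. After each marker gene was scaled to the same mean and spread, the mean profile of the 8 ran from -0.79 in PBS replicate 1 to 0.40 in Dox replicate 1. The 5 other genes whose log2 signals followed this profile most closely over the 6 arrays, of 4970 considered, were SNRNP35, MRPL48, FCGR2B, FCGR3A and GGA2, with Pearson's r of 0.988 to 0.970. The Fc receptor genes FCGR2B and FCGR3A of this group encode receptors for IgG on macrophages, and both were lowest in PBS replicate 1. FCGR2B had signals of 13, 102.8 and 91.7 in PBS-injected and of 122.1, 92.4 and 46.6 in Dox-injected piglets (limma adjusted p = 0.758). FCGR3A had signals of 141.6, 327.7 and 339.3 in PBS-injected and of 345.6, 285.6 and 230.4 in Dox-injected piglets (limma adjusted p = 0.878). These r values are picked as the highest of many over 6 arrays and are a description only.

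Other genes of the macrophage and leukocyte programmes were read from lists that were drawn up with earlier results of these data known. Of 59 further macrophage and monocyte genes, 37 could be read, 17 above 0 and 20 below 0 in their log2 difference, and their median was -0.11, against -0.07 over all genes. This median turned to 0.11 without Dox replicate 3, 0.11 without PBS replicate 3 and 0.018 without Dox replicate 2. Limma called 0 of them. Before adjustment, with p up to 0.05, 2 of the 37 were higher (4.92% of all genes) and 1 lower (6.61% of all genes). The higher ones were GPNMB, a glycoprotein of lipid-laden and phagocytic macrophages, and SPI1, which encodes PU.1, the transcription factor that directs myeloid differentiation. SPI1 had signals of 59.1, 96 and 89.9 in PBS-injected and of 114.8, 112.9 and 138.4 in Dox-injected piglets, which differ by 0.60 on the log2 scale (SE 0.26, limma adjusted p = 0.521). As with TYROBP, every Dox-injected piglet lay above every PBS-injected piglet and PBS replicate 1 was the lowest, and without that array the SPI1 difference was 0.39. Of the 37 genes, 3 had groups that did not overlap in the higher direction, against 9.06% of all genes. In the lower direction it was also 3, LIPA among them, against 10.4% of all genes. GPNMB had signals of 9.1, 21.4 and 18.4 in PBS-injected and of 27.9, 39.1 and 57.4 in Dox-injected piglets, which differ by 1.38 on the log2 scale (SE 0.43, limma adjusted p = 0.521). The lower one was LIPA, the lysosomal acid lipase, with a log2 difference of -0.64 (SE 0.27, limma adjusted p = 0.521). With 6 of the 37 genes, the signal lay within the Tag range on 4 or more arrays, among them ITGAM, MARCO and CCR2, which were chosen after their values were seen.

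Of 32 further pan-leukocyte genes, 18 could be read, 10 above 0 and 8 below 0, with a median log2 difference of 0.09, which lay below 0 when any of 4 arrays was left out (-0.16 for PBS replicate 2, -0.11 for Dox replicate 3, -0.024 for PBS replicate 1 and -0.0094 for Dox replicate 1). MYO1F, a myosin of leukocytes, was the 1 of the 18 genes with an unadjusted limma p of at most 0.05. It was higher, as 4.92% of all genes were, with a log2 difference of 0.94 (SE 0.38, limma adjusted p = 0.521). CD74, the invariant chain of MHC class II, had signals of 46.9, 66.9 and 71.2 in PBS-injected and of 30.6, 43.8 and 42.9 in Dox-injected piglets (log2 difference -0.65, limma adjusted p = 0.523). ARHGDIB, next by p, was also lower, with groups that overlapped (log2 difference -1.11, limma adjusted p = 0.531). Groups did not overlap for 3 of the 18 genes in the higher direction (9.06% of all genes) and for 2 in the lower (10.4% of all genes). ITGB2, the common beta chain of the leukocyte integrins, and CD53, a tetraspanin of leukocytes, lay above the Tag range and had log2 differences of 0.11 (limma adjusted p = 0.917) and 0.20 (limma adjusted p = 0.801); both were chosen after their values were seen. Of 16 partners and kinases of the adaptors TYROBP and FCER1G, 8 could be read, 4 above 0 and 4 below 0, with a median of 0.0059 and a range of -0.024 to 0.098 with 1 array left out. SYK was not among the 8 genes read, and 2 of the 8 lay within the Tag range on 4 or more arrays. FYN, a SRC family kinase found in many cell types, had the lowest p of these genes and a log2 difference of -0.68 (SE 0.28, limma adjusted p = 0.521). Limma called 0 genes in either list.

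Markers of other cell types were read on the same arrays, from lists likewise drawn up with earlier results of these data known. Of 8 measured neutrophil genes, 6 were above 0 with a median log2 difference of 2.72. At an unadjusted limma p up to 0.05, 5 were higher, as 4.92% of all genes were, with 0 called after adjustment. With 4 of the 8, the signal lay within the Tag range on 4 or more arrays. MMP9 and S100A12 (the latter chosen after its values were seen) are in both groups. Without these 4 the median was 3.23. The summed signal of the 8 was 27.1 to 41.4 in PBS-injected piglets and 92.2, 1060.6 and 280.1 in Dox replicates 1, 2 and 3. The calprotectin subunit gene S100A9, which monocytes also express, made up most of it on the Dox arrays and on PBS replicate 3, with signals of 7.8 to 27.5 in PBS-injected and of 56.9, 681.5 and 185.9 in Dox-injected piglets (limma adjusted p = 0.521). Dox replicates 2 and 3 thus held the highest sums over the neutrophil genes and the highest CD163 signals. Not every neutrophil gene had this order, as MMP9 was highest in Dox replicate 1 at 7.8. The part of neutrophils in the CD163, TYROBP and FCER1G signals was not tested. ELANE, the neutrophil elastase gene, which was chosen after its values were seen, did not exceed the Tag range on any array. Of 12 measured T and NK cell genes, 7 lay within the Tag range on 4 or more arrays. CD3D, CD3G and CD2, likewise chosen after their values were seen, are among them. Of the 12, 3 were above 0 and 9 below 0, with a median log2 difference of -0.52. At an unadjusted limma p up to 0.05, 1 was lower, GNLY, as 6.61% of all genes were, with 0 called after adjustment. The summed signal was 77.3 to 162.7 in the PBS group and 32.6 to 138.3 in the Dox group. GNLY made up most of it on the PBS arrays and on Dox replicate 1, with signals of 41.8 to 125.2 in PBS-injected and of 87.9, 6.7 and 1.1 in Dox-injected piglets. The B cell genes are represented by CD79B and JCHAIN alone, with a summed signal of 5.9 to 13.7 in the PBS group and 1.5 to 13.1 in the Dox group. The mast cell genes KIT and GATA2 summed to 61.3 to 76.3 in the PBS group and 56.2 to 99.9 in the Dox group.

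All 7 measured fibroblast genes had a log2 difference below 0, with a median of -0.91. At an unadjusted limma p up to 0.05, 4 of them were lower, as 6.61% of all genes were, and 0 were called after adjustment. Their summed signal was 3239.3 to 5017.3 in PBS-injected piglets and 2990.2, 1777.6 and 1330.3 in Dox replicates 1, 2 and 3, and none lay within the Tag range on 4 or more arrays. The Dox-injected piglets thus had the same order for this sum as for AIF1 and the 2 brightest FGL2 probe sets, with Dox replicate 1 highest and Dox replicate 3 lowest. At the third FGL2 probe set Dox replicate 2 was lowest, at 70.1. Dox replicate 3 held the lowest of the 6 signals for 34.3% of all genes. DCN, which encodes the matrix proteoglycan decorin, had signals of 1712.9, 1450.3 and 1861.7 in PBS-injected and of 1231.5, 853.1 and 661.8 in Dox-injected piglets (log2 difference -0.91, limma adjusted p = 0.521). The 9 endothelial genes, 3 above 0 and 6 below 0, had a median of -0.14, which turned to 0.056 without PBS replicate 1. Their summed signal was 1532.1 to 2269.6 in the PBS group and 1426.6 to 1461.5 in the Dox group. TIE1 and CDH5 of these were lower at an unadjusted limma p up to 0.05, as 6.61% of all genes were. They were also the 2 of the 9 whose groups did not overlap, both in the lower direction, as 10.4% of all genes did. Of the 11 cardiomyocyte genes, 9 were above 0 with a median of 0.28, and their summed signal was 47533.5 to 56630.1 in the PBS group and 56901.0 to 73417.5 in the Dox group. The part of fibroblasts, endothelial cells or cardiomyocytes in the FGL2 and AIF1 signals was not tested.

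**Figure D4:**
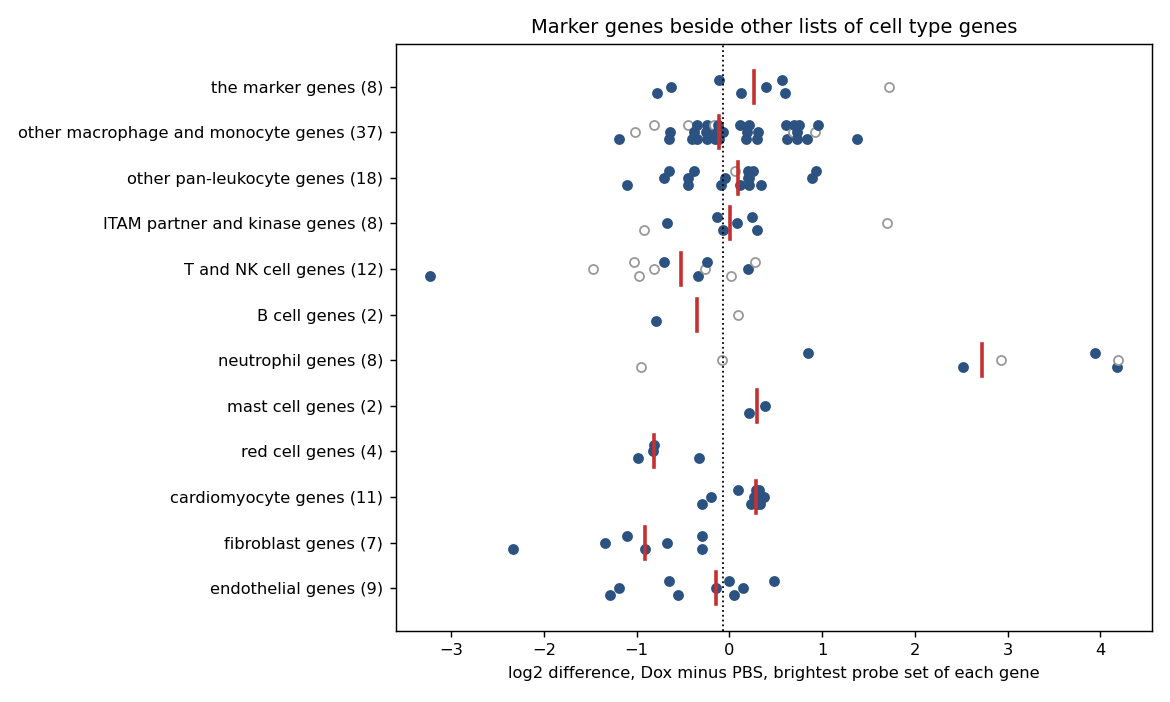
Log2 difference (Dox minus PBS) for every measured gene of the marker genes and of 11 other lists, each gene at its brightest probe set and the number of genes in brackets. Open grey points lie within the Tag range on 4 or more arrays, red bars are list medians and the dotted line is the median of all genes at -0.07; the marker genes spread to both sides of it, neutrophil genes lie mostly to the right and fibroblast genes to the left.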

How the data were processed

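Total RNA of the LV free wall of 3 PBS-injected and 3 Dox-injected piglets was hybridized to 6 Affymetrix arrays, and the labels gave each array its group and replicate number. The authors deposited intensities, MAS5 signals made with default settings in GCOS (version 1.4, per the submitters' processing notes), with a 2% trimmed mean near 100 on each array. Scanner files were not used here. Signals of 0, present on 1 or more arrays for 311 probe sets, were set to 0.1, the lowest signal above 0, before taking log2. The array has 24123 probe sets, of which 124 controls were left out. Group differences were fitted with limma 3.58.1 in R 4.3.3 (lmFit, eBayes with an intensity trend, without covariate, filter or new normalization), and p-values of 23999 probe sets were adjusted by Benjamini-Hochberg, and the code was tested on simulated data. The methods' unpaired t-test and exact two-sided permutation tests of log2 signals were run beside it. Gene names came from the annotation of the platform, where 10069 have 1 symbol, 198 several and 13732 none. Each gene was read at its brightest probe set by geometric mean over the arrays, and its other probe sets were given beside it. The rule for named genes takes every marker gene with a probe set, at most 3 genes with the smallest unadjusted p of each other list, with others named as chosen later, and the 5 genes of most similar pattern among those above the Tag range on all arrays and above the median signal. The marker genes, the 11 lists and the Tag range were chosen with earlier results of these data known. The methods name an unpaired t-test for comparisons between groups, without saying whether it was used for the arrays. Figures were drawn with matplotlib 3.10.9.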

Additional observations from a re-analysis of the deposited data

How the results depend on the processing

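Under all alternatives limma or the t-test called 0 of the 8 marker genes, and 155 of 161 values of the 11 probe sets above the Tag range or brightest of their gene kept their direction. Some of these values could not turn. Fits without the intensity trend, with the replicate block or without dim probe sets leave the log2 difference as it was. The mean over probe sets does so for genes with 1 probe set. The count therefore overstates how many alternatives put the direction to a test. Of the array, 0 probe sets were called, but 14 without Dox replicate 1, none of a marker gene's brightest probe set (range with 1 array left out 0 to 14). At an unadjusted p of at most 0.05, the count of higher marker genes was 1 in place of 0 with array weights, cyclic loess, quantile normalization and the mean over a gene's probe sets (CD163 each time), and 0 to 2 with 1 array left out (CD163 and PTPRC without Dox replicate 1, PTPRC without PBS replicate 3). The count of lower ones was 2 with array weights (AIF1 and FGL2), 1 with cyclic loess, quantile normalization and the mean over a gene's probe sets (FGL2), and 0 to 2 with 1 array left out, 2 without Dox replicate 1. Same-numbered arrays did not deviate together (correlations of -0.01, 0.02 and -0.06), so the numbers were not taken as pairs, and with the replicate number as a block 1 was higher (CD163) and 1 lower (FGL2), and no gene was called after adjustment. The median of the marker genes was 0.26, 0.42 with quantile normalization, 0.44 with cyclic loess, 0.11 with array weights, 0.14 with an offset of 16 before log2 and 0.13 without dim probe sets, and 0.063 to 0.40 with 1 array left out, lowest without PBS replicate 1. The MRC1 difference turned to 0.0077 with cyclic loess and ranged from -0.33 to 0.21 with 1 array left out, above 0 without Dox replicate 3 and without PBS replicate 3. The FCER1G difference turned to -0.018 with array weights and ranged from -0.082 to 0.33 with 1 array left out, below 0 without Dox replicate 1 and without PBS replicate 1. The cause of these shifts was not tested. Signals near the Tag range, those of CD14 and PTPRC, limit what can be read of monocytes and of CD45.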

Other observations

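GNLY encodes granulysin, a cytotoxic granule protein of T and NK cells. It had signals of 125.2, 41.8 and 101.5 in PBS-injected and of 87.9, 6.7 and 1.1 in Dox-injected piglets, which differ by -3.23 on the log2 scale (SE 1.33, limma adjusted p = 0.521). The groups overlapped (exact permutation test, p = 0.2), as Dox replicate 1 lay above PBS replicate 2. The signal of Dox replicate 3 lay within the Tag range, which ended at 3.1 on that array, so the size of the difference rests in part on a background reading. Leaving out Dox replicate 3 gave -1.74 and leaving out Dox replicate 1 gave -4.90. IL34, which encodes a ligand of CSF1R that maintains some tissue macrophages, had signals of 53, 150.9 and 146.7 in PBS-injected and of 113.4, 45.3 and 19.3 in Dox-injected piglets, so that the groups overlapped (log2 difference -1.19, limma adjusted p = 0.57). IL34 was chosen after its values were seen. VSIG4, a complement receptor of resident macrophages that was chosen in the same way, had signals of 153.4, 200.7 and 246.7 in PBS-injected and of 264.8, 261.1 and 206.3 in Dox-injected piglets (log2 difference 0.30, limma adjusted p = 0.668).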
